A study of Homo sapiens with 12 samples.

Results

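The replication-dependent histone genes supply the histone proteins that package newly copied DNA. They were followed here across 12 RNA libraries of SH-SY5Y, a human neuroblastoma cell line differentiated with all-trans retinoic acid (ATRA). After ATRA the study's methods describe more neurite growth and stalled cell division. Members were all counted symbols that begin with HIST1H, HIST2H, HIST3H or HIST4H, without symbols named as pseudogenes by PS and a number. This gave 70 members of 55765 counted symbols after 6 further symbols that RefSeq lists as pseudogenes were set aside, with 6 H1, 17 H2A, 18 H2B, 14 H3 and 15 H4 genes. All 4 groups received 10 μM ATRA for 7 days. The co-treatment controls received ATRA alone, and the co-treated cells received H2O2 together with ATRA for the 7 days. The pre-treatment controls received ATRA alone, and the pre-treated cells received H2O2 for 72 h before the ATRA. Each group had 3 libraries of total RNA depleted of ribosomal RNA. The series text gives the H2O2 dose as 10 mM and the study's methods as 10 μM. All cultures came from 1 tumor-derived line, the sources used here do not say whether libraries of a group came from separate cultures, and p-values then measure only the spread between these libraries.

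H2A, H2B, H3 and H4 form the core of the nucleosome, in which an H3-H4 tetramer is joined by H2A-H2B dimers, and the linker histone H1 binds where DNA enters and leaves. Transcription of these genes is tied to S phase, the part of the cell cycle in which DNA is copied. Their mRNAs end in a conserved stem-loop in place of a poly(A) tail. The stem-loop binding protein SLBP binds it, and the U7 small nuclear RNP acts in the processing of this 3′ end. Because the libraries were not selected for poly(A), mRNAs of this kind could be counted.

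The stem-loop was found downstream of the stop codon in all 67 members that could be placed on hg19, the build of the counts (HIST1H2BF, HIST1H2BG and HIST1H4F were not placed). The letters differed by class. The stem opened with GGCCC in all 14 H4 genes searched and in 0 of the 53 genes of the other classes. The most frequent form, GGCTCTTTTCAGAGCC, was found in 39 members, none of them an H4 gene, and the most frequent H4 form, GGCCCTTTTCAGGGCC, in 9. The stem-loops below were taken from the hg19 genome on the strand of the gene, with T for U, and are those of highly counted members of each class and of members discussed later. Capitals mark the 16 bases of the stem-loop (stems of 6 and a loop of 4), and 5 bases are shown on each side.
HIST1H1C: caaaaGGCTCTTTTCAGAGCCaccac
HIST1H2AE: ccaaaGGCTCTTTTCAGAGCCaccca
HIST1H2AG: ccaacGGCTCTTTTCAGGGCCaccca
HIST1H2BD: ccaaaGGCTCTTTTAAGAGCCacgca
HIST1H3B: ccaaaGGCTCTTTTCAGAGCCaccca
HIST1H3E: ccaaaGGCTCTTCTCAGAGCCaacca
HIST1H4C: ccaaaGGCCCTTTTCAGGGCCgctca
HIST1H4L: tcaaaGGCCCTTCTCAGGGCCaccca
HIST4H4: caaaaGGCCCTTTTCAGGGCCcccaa
Among those shown, the loop letters varied within the H3 and H4 classes, whereas the stem letters followed the class except in HIST1H2AG, whose second arm reads as in the H4 genes. The form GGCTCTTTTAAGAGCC, seen in HIST1H2BD, was shared by 9 members of the H1, H2A, H2B and H3 classes.

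The promoters also differed by class. In RefSeq promoter windows on GRCh38.p14, from 250 bases before to 50 after the start, 65 members had an entry, and both strands were searched. CCAAT, the motif bound by the factor NF-Y, was found in all 6 H1, 16 H2A, 18 H2B and 12 H3 promoters and in 3 of 13 H4 promoters, against 35.7% of all 27305 promoters. TATAA was found in 60 of the 65 members (92.3%) and in 21.1% of all promoters. The octamer ATTTGCAT, a binding motif of the POU family factors, was found in 11 of 16 H2A, 14 of 18 H2B and 1 of 12 H3 promoters and in 0 of 6 H1 and 0 of 13 H4 promoters, against 1.8% of all promoters. A match describes the letters only. Many H2A and H2B genes lie head to head, and the bases between HIST1H2BC on the minus strand and HIST1H2AC on the plus strand (hg19 chr6:26124155-26124372, 218 bases between the annotated starts) show these motifs in a region that both genes share, with CCAAT and ATTTGCAT on either strand in capitals.
HIST1H2BC to HIST1H2AC: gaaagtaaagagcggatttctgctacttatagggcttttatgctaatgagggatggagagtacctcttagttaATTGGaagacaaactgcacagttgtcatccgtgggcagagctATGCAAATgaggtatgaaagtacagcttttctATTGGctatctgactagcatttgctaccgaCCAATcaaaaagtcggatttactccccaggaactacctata
The octamer stands near the middle, with copies of CCAAT on both sides of it.

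Libraries differed in ways that the groups did not explain. Gene counts of a library summed to between 27576276 and 98287391. Members took 0.599% to 0.954% of these counts in the co-treatment experiment, but 0.209% and 0.359% in pre-treatment controls 1 and 2, 0.751% in control 3, 0.423% and 0.408% in treated 1 and 2, and 0.703% in treated 3. Small structured RNA loci took 1.58% and 2.88% of gene counts in pre-treatment controls 1 and 2 and 17.6% in control 3, against 13.3% to 15.1% in the pre-treated libraries. Control 3 thus stood apart from the other controls of its group, and pre-treatment tests are given with and without it. These grounds include the members' own share of counts, and leaving out control 3 removes the control with the highest share. Higher members over 5 pre-treatment libraries, or in the difference over 11, are therefore partly set by that choice. They are not independent support for a rise. Reads on no annotated feature numbered 0.800 and 0.830 per gene count in controls 1 and 2 and 0.200 to 0.462 in the other 10 libraries. Of the 10 adrenergic and neuronal markers, 9 were tested in each experiment, with a summed level of 2836 to 3843 CPM (read counts scaled to a common library size, with TMM factors over the 12 libraries), and TH was near 0 with a mean of 0.104 CPM. None of these markers was called in co-treatment or over 6 pre-treatment libraries, whereas over 5 libraries DBH (log2FC -1.72 ± 0.45, FDR = 0.0259) and GATA3 (-1.44 ± 0.31, FDR = 0.0126) fell and GAP43 rose (1.13 ± 0.28, FDR = 0.0204), with log2FC of -1.48, -1.07 and 0.42 over 6. Over 5 libraries 2.98% of all genes were called higher and 8.23% lower. HAND2 and STMN2 were called higher in the difference between experiments over 11 libraries (0.75 ± 0.21, FDR = 0.0432, and 0.82 ± 0.20, FDR = 0.0275), against 3.32% of all genes. The part of these markers in the histone values below was not tested.

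Levels of the members ranged widely within each class. By mean CPM over the 12 libraries, 26 members exceeded 100 CPM, 27 lay between 10 and 100 CPM and 13 were below 1 CPM. The 10 highest members held 39.8% of the summed CPM of all 70. HIST1H2BA, a testis histone, had no count in any library, which allows up to 0.0305 CPM in the deepest and 0.109 CPM in the shallowest library (3 counts, covering counting error only). Other testis members were low as well, with a mean of 1.72 CPM for the linker histone HIST1H1T, 0.234 CPM for HIST3H3 and 0.0217 CPM for HIST1H2AA.

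Per kilobase of coding length, the H4 genes HIST1H4C and HIST1H4E had the highest mean levels, 787 and 722 CPM per kb. They were followed by HIST1H3B (683), HIST1H4D (614), HIST1H1B (544), HIST1H2AE (534) and HIST1H1C (527). Reads were counted over whole genes, which are longer than their coding part, so this scale is rough and the order of near values depends on the length used. The highest H2B gene with a known length was HIST1H2BD, at 462 CPM per kb. The 2 highest members held 58.1% of the class CPM in H1 but only 18.7% in H2B, where levels were spread most evenly over the genes. The pairs HIST1H4J and HIST1H4K, HIST2H2AA3 and HIST2H2AA4, HIST2H3A and HIST2H3C, and HIST2H4A and HIST2H4B share every 100-base window of their coding sequence, so that their single levels are uncertain. Within pairs, HIST2H2AA3 measured 0.242 CPM against 9.49 CPM for HIST2H2AA4, and HIST2H3A 0.179 CPM against 6.70 CPM for HIST2H3C. Reads aligned at more than 1 place were entered apart from the genes, at 0.2965 to 0.5991 per gene count. A low level of these members therefore need not mean low expression. In the annotation used here HIST1H4C and HIST1H1T lie within the long gene model of HIST1H2BC, on which HIST1H4C has the opposite strand and HIST1H1T the same one, and HIST1H2AM overlaps HIST1H3J. The strand setting of the counting is not given in the sources used here.

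Members rose and fell together from library to library. The lowest level was in pre-treatment control 1 for all 57 members with a mean of at least 1 CPM, and the highest was in co-treated 2 for 29, in co-treatment control 3 for 24 and in pre-treatment control 3 for 2. The ratio of the highest to the lowest library had a median of 6.06 over these 57 members. At the upper end, it reached 14.0 for HIST1H3G, from 7.40 to 103 CPM. At the lower end stood HIST4H4, the only member on chromosome 12 (hg19 chr12:14920933-14924065, minus strand), whose level moved between 6.53 and 12.9 CPM, a ratio of 1.98. The next lowest ratios, of H2B genes, were 3.35 for HIST1H2BF, 3.39 for HIST1H2BK and 3.62 for HIST2H2BE. No test was made of these ratios.

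**Figure D1:**
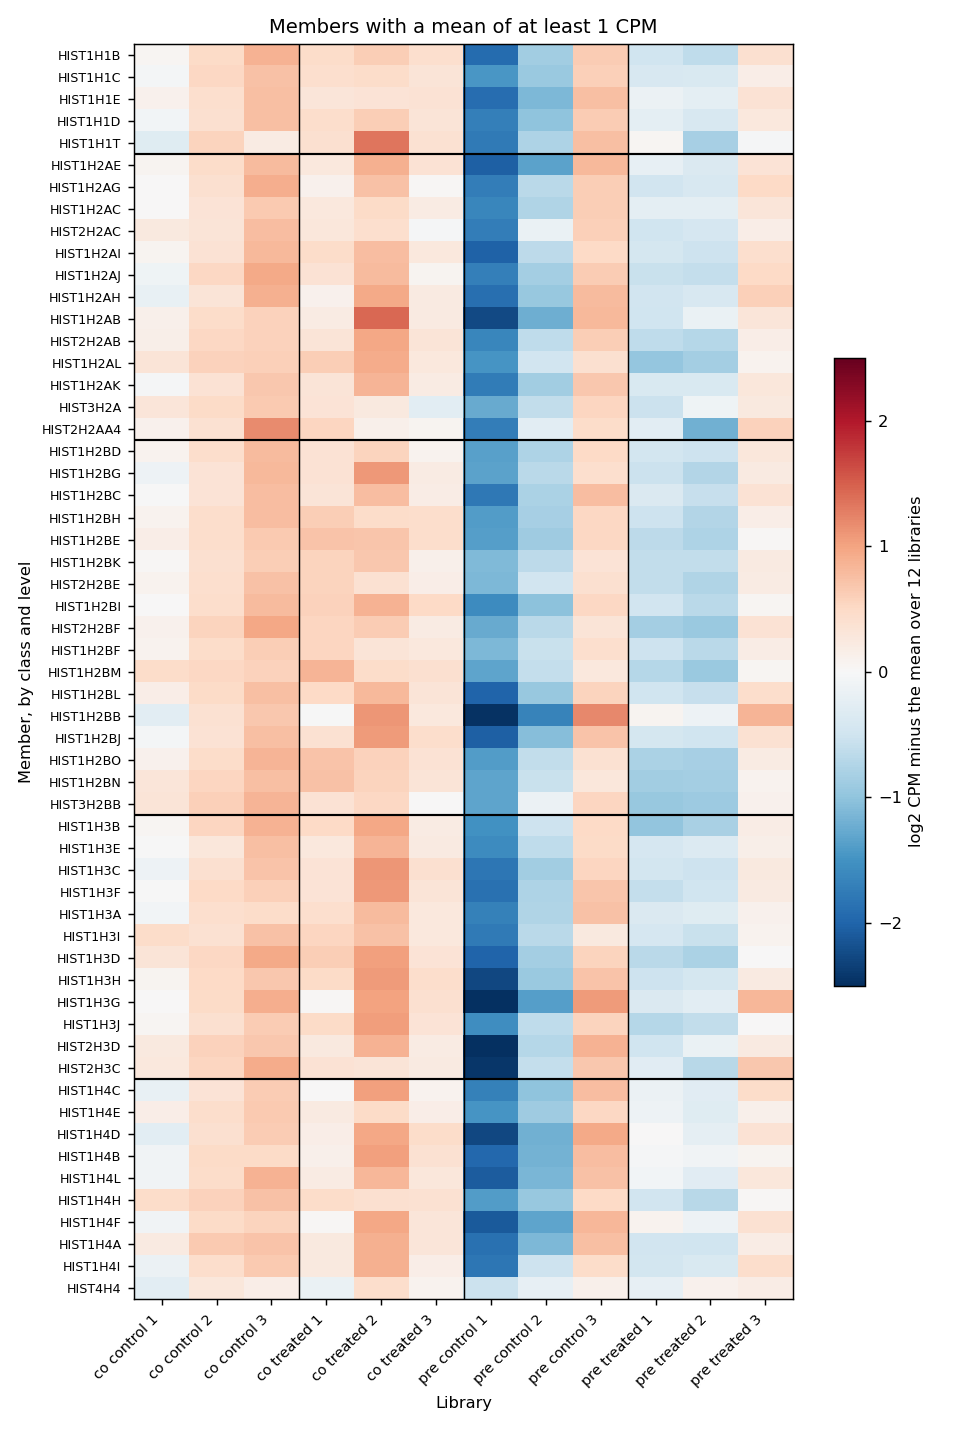
Level of the 57 members with a mean of at least 1 CPM (rows, by class and mean level) in each of the 12 libraries (columns), as log2 CPM minus the row's mean over the libraries. Pre-treatment control 1 is lowest in all 57 rows, and HIST4H4, in the bottom row, varies by a ratio of 1.98 between its highest and lowest library.

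Co-treatment. With H2O2 present throughout differentiation, no member was called. The comparison asks whether histone expression of ATRA-treated cells differs when they are exposed to H2O2 at the same time, and a call needed an FDR (Benjamini-Hochberg adjusted p of edgeR's quasi-likelihood test over all genes) below 0.05 and an absolute log2FC above 0.6. The test covered 62 of the 70 members. The call rate over all 22089 genes tested was 0.598%. At an unadjusted p below 0.05 there were 0 members, against 8.15% of all genes, and the lowest FDR among members was 0.641. The exact test of edgeR and DESeq2 also called 0 members and had 0 at an unadjusted p below 0.05, and limma-voom called 0 with 1 member at that p. Groups did not overlap for 1 of the 62 members, HIST2H2AA3, which was lower in treated cells and rests on 161 counts over the 12 libraries, against 14% of all genes in either direction.

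Summed over each class, levels of co-treated and control libraries overlapped. H1 measured 1109, 1514 and 1891 CPM in the controls and 1459, 1564 and 1415 CPM in the treated libraries, with means of 1505 ± 391 and 1479 ± 76.9 CPM (SD, n = 3). H4 measured 1055, 1457 and 1680 CPM in the controls and 1206, 1931 and 1292 CPM in treated libraries. The groups overlapped in both classes, and the treated H4 mean, 1476 ± 396 CPM, differed from the control mean of 1397 ± 317 CPM by less than the spread within either group (SD, n = 3). All 70 members together had a mean of 7770 ± 1843 CPM in controls and 8061 ± 1463 CPM in treated libraries (SD, n = 3). Median log2FC was -0.01 for H1, 0.01 for H2A, 0.06 for H2B, 0.09 for H3 and 0.10 for H4, beside -0.001 for all genes tested.

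**Figure D2:**
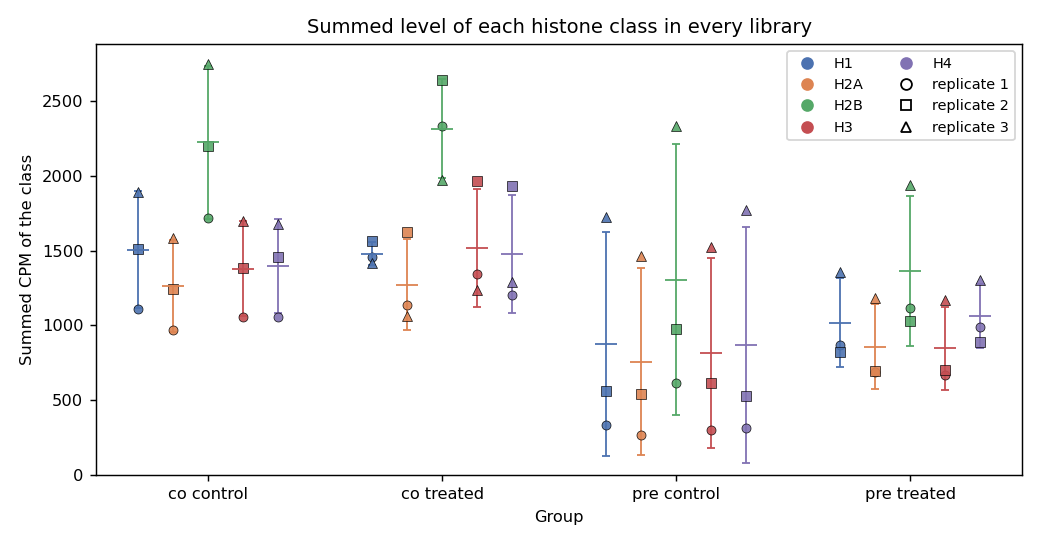
Summed CPM of each histone class (colors) in every library (symbols mark the replicate number), by group on the horizontal axis, with the mean and SD of 3 libraries as a bar and whiskers. Classes overlap between co-treated and control libraries, while pre-treatment control 3 (triangles) lies above controls 1 and 2 in every class, at 2331 CPM against 613 and 973 CPM for H2B.

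The 2 members with the highest levels in each class overlapped between the groups gene by gene. Among the linker histones, HIST1H1B measured 340, 458 and 601 CPM in controls and 449, 501 and 440 CPM in co-treated libraries, a log2FC of -0.01 ± 0.18 (SE). HIST1H1C, one of the histone genes described with polyadenylated transcripts in non-dividing cells, measured 300, 445 and 515 CPM against 417, 426 and 387 CPM (log2FC -0.03 ± 0.18). Both genes had their lowest and highest values in the controls. Among the H2A genes, HIST1H2AE measured 191, 250 and 317 CPM in controls and 220, 337 and 235 CPM in co-treated libraries (log2FC 0.06 ± 0.20). HIST1H2AG measured 115, 150 and 214 CPM against 123, 190 and 117 CPM (log2FC -0.16 ± 0.23). The groups overlapped for both. For H2B, HIST1H2BD measured 173, 219 and 282 CPM in controls and 208, 239 and 173 CPM in co-treated libraries (log2FC -0.12 ± 0.18). HIST1H2BG measured 132, 183 and 254 CPM against 186, 307 and 166 CPM (log2FC 0.21 ± 0.25), with co-treated 2 above all other libraries of the experiment.

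HIST1H3B, HIST1H3E and HIST1H4C were also highest in co-treated 2. HIST1H3B measured 258, 360 and 455 CPM in controls and 354, 488 and 288 CPM in co-treated libraries (log2FC 0.08 ± 0.22). HIST1H3E measured 128, 158 and 218 CPM against 155, 234 and 151 CPM (log2FC 0.10 ± 0.21). The treated libraries other than co-treated 2 lay inside the control range for both genes. HIST1H4C measured 193, 277 and 340 CPM in controls and 221, 448 and 233 CPM in co-treated libraries (log2FC 0.16 ± 0.26). HIST1H4E measured 235, 284 and 329 CPM against 246, 293 and 234 CPM (log2FC -0.13 ± 0.15), so its groups covered nearly the same range. Over all tested members, estimates ran from -0.80 ± 0.55 for HIST2H2AA3 to 0.65 ± 0.82 for HIST3H3, both of them members below 1 CPM.

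The largest and smallest log2FC of each class in co-treatment were all within about 2 SE of 0. They were 0.59 ± 0.33 for HIST1H1T and -0.11 ± 0.16 for HIST1H1E in H1, and 0.35 ± 0.28 for HIST1H2AB beside HIST2H2AA3 in H2A. In H2B they were 0.28 ± 0.21 for HIST1H2BJ and -0.29 ± 0.17 for HIST3H2BB. In H3, HIST2H3A was the lowest at -0.43 ± 0.63, and in H4 the range ran from -0.18 ± 0.12 for HIST1H4H to 0.27 ± 0.23 for HIST1H4D. A list of 6 members described with polyadenylated transcripts (HIST1H1C, HIST1H2AC, HIST1H2BC, HIST1H2BD, HIST1H2BK and HIST2H2BE) had a median log2FC of -0.03 and the other tested members 0.07. Polyadenylation was not measured here, and other members may have such transcripts too.

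Pre-treatment over 6 libraries. With H2O2 given for 72 h before ATRA, no member was called when all labelled libraries were used. This comparison asks whether an exposure that ended before differentiation leaves histone expression changed after 7 days of ATRA, and a call needed an absolute log2FC above 1. The test covered 65 members among 24743 genes, of which 0.0242% were called. At an unadjusted p below 0.05 there was 1 member, HIST3H3, against 11.2% of all genes. The exact test and DESeq2 called 0 members with 1 at an unadjusted p below 0.05, and limma-voom called 0 with 0. Groups did not overlap for 1 member, HIST2H3A (lower in treated cells, 119 counts over the 12 libraries), against 16.4% of all genes in either direction. Median log2FC was 0.15 for H1, 0.19 for H2A, 0.04 for H2B, 0.06 for H3 and 0.29 for H4, beside -0.01 over all genes.

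The wide spread of the controls sets what this comparison can show. Summed over the 70 members, the controls measured 1821, 3219 and 8819 CPM (4619 ± 3703, SD, n = 3) and the treated libraries 4340, 4131 and 6952 CPM (5141 ± 1572, SD, n = 3). Every treated library lay between controls 2 and 3. The SE of single members was accordingly large, as for HIST1H4C (log2FC 0.30 ± 0.57) or HIST1H1E (0.34 ± 0.59). Of the 65 tested members, 62 were higher in control 3 than in both other controls, 57 were higher in control 3 than in every treated library, and 61 were higher in treated 3 than in treated 1 and 2. Largest and smallest values by class were 0.34 for HIST1H1E and -0.91 ± 0.89 for HIST1H1A in H1, 0.28 for HIST1H2AE and -0.19 for HIST1H2AM in H2A, and 0.43 ± 0.83 for HIST1H2BB and -0.37 for HIST3H2BB in H2B. In H3 they were 0.35 for HIST1H3G and -2.47 ± 0.93 for HIST3H3, and in H4 0.63 ± 0.62 for HIST1H4K and -0.53 for HIST2H4B.

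Pre-treatment over 5 libraries. Without control 3, most members were higher in pre-treated cells, and 23 of the 65 tested rose, with H4 genes the most often called. The called members were 8 of 13 H4 genes, 3 of 6 H1 genes, 5 of 15 H2A genes, 4 of 17 H2B genes and 3 of 14 H3 genes, and the call rate in this direction was 2.98% of all 26350 genes tested. HIST3H3 fell, the 1 member called lower, against 8.23% of all genes. All 23 that rose lie in the large HIST1 cluster on chromosome 6, which holds 51 of the 65 tested members. By group ranges, 42 members were higher in every treated library than in controls 1 and 2 (27.9% of all genes), and 2 were lower in every treated library (29.9% of all genes). Median log2FC was 1.09 for H1, 1.08 for H2A, 0.71 for H2B, 0.95 for H3 and 1.39 for H4, beside 0.01 over all genes. The 24 calls rest on few libraries: 10 members were called without control 1, 12 without treated 3, and 0 with control 3 kept. The control-side level behind it comes from the 2 libraries with the lowest share of small structured RNA, 1.58% and 2.88% against 13.3% to 15.1% in treated libraries. The same 2 libraries had the most reads on no feature, 0.800 and 0.830 per gene count against 0.343 to 0.462 in treated libraries. The part of these differences in the result was not tested.

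**Figure D3:**
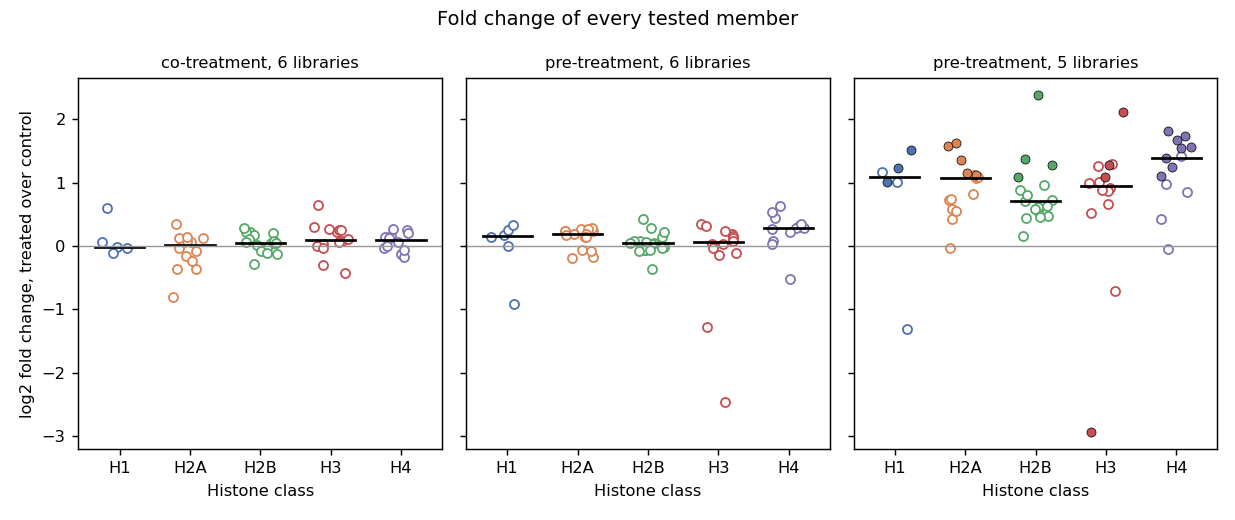
log2FC of every tested member, treated over control, by histone class (horizontal axis) in co-treatment (6 libraries), pre-treatment over 6 libraries and pre-treatment over 5 libraries (without control 3), with filled points for called members and a line at the class median. Filled points appear only in the right panel, where the H4 median is 1.39 and HIST3H3 stands at -2.94.

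The 5 members with the smallest FDR among those that rose were 2 H4 genes, 1 H2B, 1 H2A and 1 H1 gene. HIST1H4F measured 15.8 and 27.2 CPM in controls 1 and 2 and 72.4, 61.9 and 88.9 CPM in treated libraries, a log2FC of 1.82 ± 0.25 (SE, FDR = 0.0027). HIST1H4B measured 34.8 and 59.6 CPM against 133, 128 and 143 CPM (1.54 ± 0.21, FDR = 0.0027). For both H4 genes the lowest treated library was more than 2 times the higher of these controls, and control 3, at 121 and 233 CPM, lay above all treated libraries. HIST1H2BB measured 10.4 and 18.1 CPM in controls 1 and 2 and 60.4, 52.9 and 104 CPM in treated libraries (2.38 ± 0.34, FDR = 0.00329). HIST1H2AE measured 44.3 and 72.8 CPM against 158, 142 and 231 CPM (1.63 ± 0.26, FDR = 0.0048). HIST1H1E, a main linker histone, measured 69.4 and 119 CPM against 234, 219 and 334 CPM (1.51 ± 0.26, FDR = 0.00583). Their levels in control 3 were 133, 321 and 435 CPM, again above every treated library.

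Among the 2 highest members of each class, HIST1H1C, HIST1H2AE and both H4 genes rose without control 3. HIST1H1C measured 113 and 163 CPM in controls 1 and 2, 470 CPM in control 3 and 235, 238 and 348 CPM in treated libraries (log2FC 1.02 ± 0.22 without control 3, FDR = 0.0128). HIST1H1B measured 86.9, 180 and 513 CPM in controls and 232, 211 and 435 CPM in treated libraries (1.16 ± 0.37 without control 3, FDR = 0.0509). HIST1H1C rose by this test. HIST1H1B, with a similar estimate and a larger SE, narrowly missed the FDR threshold. HIST1H4C measured 67.7, 109 and 376 CPM in controls and 199, 181 and 300 CPM in treated libraries (1.39 ± 0.26 without control 3, FDR = 0.00815). HIST1H4E measured 75.4, 113 and 299 CPM against 193, 171 and 230 CPM (1.10 ± 0.20, FDR = 0.0064). Both H4 genes rose without control 3, and neither was called with it. HIST1H2AG measured 34.7, 71.4 and 175 CPM in controls and 81.6, 86.2 and 162 CPM in treated libraries (1.08 ± 0.36 without control 3, FDR = 0.0586).

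The H2B and H3 genes with the highest levels were not called. HIST1H2BD measured 63.5, 95.4 and 229 CPM in controls and 119, 114 and 197 CPM in treated libraries (0.88 ± 0.27 without control 3, FDR = 0.0417, under the threshold on log2FC). HIST1H2BG measured 57.1, 90.1 and 194 CPM against 99.2, 86.9 and 168 CPM, with treated 2 below control 2 (FDR = 0.107). Neither H2B gene was called. HIST1H3B measured 87.9, 173 and 351 CPM in controls and 126, 143 and 285 CPM in treated libraries, so that treated 1 and 2 lay between controls 1 and 2 (FDR = 0.331). HIST1H3E measured 43.8, 83.5 and 180 CPM against 96.5, 102 and 144 CPM (0.87 ± 0.27, FDR = 0.0467, under the threshold on log2FC). The other class extremes over 5 libraries were 2.11 ± 0.47 for HIST1H3G, which was called (FDR = 0.0143), -1.31 ± 0.82 for HIST1H1A, -0.03 for HIST1H2AM, 0.15 ± 0.40 for HIST3H2BB and -0.06 for HIST2H4B.

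HIST3H3, a testis H3 gene, went the other way on few counts. It had 20 and 57 counts in pre-treatment controls 1 and 2, 8 in control 3 and 3, 10 and 10 in treated libraries, with 2 to 16 counts in the co-treatment libraries. Its log2FC was -2.94 ± 0.73 over 5 libraries (FDR = 0.0214) and -2.47 ± 0.93 over 6 (FDR = 0.381). Controls 1 and 2 were above the treated libraries and control 3 was not, and the FDR was 0.267 without control 2. HIST4H4, the member with the smallest spread, measured 6.53, 8.30 and 10.4 CPM in pre-treatment controls and 8.31, 10.3 and 10.8 CPM in treated libraries, a log2FC of 0.43 ± 0.20 over 5 libraries (FDR = 0.139) and 0.22 ± 0.23 over 6 (FDR = 0.737).

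The classes did not keep fixed shares of the histone counts. H2B held the largest share of the summed CPM in every library, and this share was 33.7% and 30.2% in pre-treatment controls 1 and 2, 26.4% in control 3 and 25.8%, 24.8% and 27.9% in treated libraries. H4 held 17.1% and 16.3% in controls 1 and 2, 20.1% in control 3 and 22.8%, 21.6% and 18.7% in treated libraries. The H2B share was thus lower, and the H4 share higher, in all treated libraries than in controls 1 and 2, while control 3 lay inside the treated range for both. In co-treatment the H2B share was 28.7% ± 0.428 in controls and 28.9% ± 2.08 in treated libraries (SD, n = 3), and that of H4 was 18.0% ± 0.609 and 18.2% ± 1.89 (SD, n = 3). Co-treated 2 differed from the other libraries of its experiment, with 16.1% for H1 against 18.8% to 20.3% and 20.2% for H3 against 17.7% to 18.0%. The 6 members listed as described with polyadenylated transcripts held 20.4% and 17.9% of the histone CPM in pre-treatment controls 1 and 2. They held 16.3% in control 3 and 16.6% to 16.9% in treated libraries. Shares depend on gene length, and they were not tested.

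**Figure D4:**
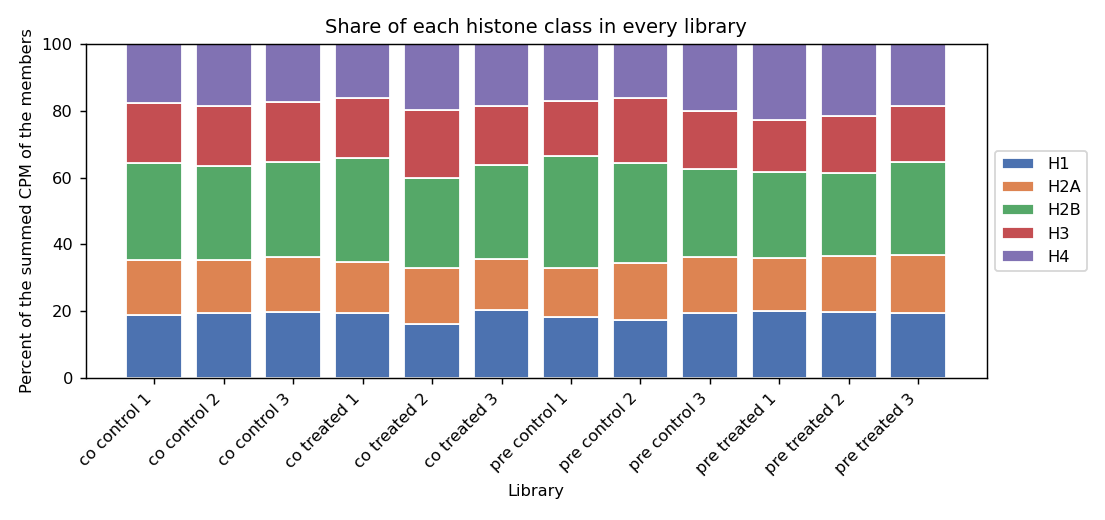
Percent of the summed CPM of all members held by each histone class (stacked colors, adding to 100%) in each of the 12 libraries. The H2B share is widest in pre-treatment control 1 (33.7%) and the H4 share in pre-treated 1 (22.8%).

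Members were also grouped by sequence features, which were not used to choose them, and by the locus named in their symbol. The stem-loop forms that open with GGCCC hold H4 genes only. The pre-treatment medians again depended on control 3. Members with the H4 stem-loop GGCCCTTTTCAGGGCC had a median log2FC of 1.31 over 5 libraries (8 tested, 5 rose) and 0.29 over 6 (0 called). Those with the other H4 form, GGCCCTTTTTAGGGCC, had 0.99 over 5 libraries (3 tested, 1 rose) and 0.27 over 6 (0 called). Members with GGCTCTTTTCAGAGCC had 0.95 over 5 libraries (36 tested, 11 rose) and 0.13 over 6 (0 called), and those with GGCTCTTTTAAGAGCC had 0.88 (9 tested, 3 rose) and 0.07 (0 called). The H2A and H2B genes with the octamer in their promoter had a median of 0.73 over 5 libraries and 0.05 over 6 (22 tested), and those without it 0.83 and 0.14 (9 tested). By locus, the median in HIST1 was 1.09 over 5 libraries (51 tested, 23 rose) and 0.17 over 6 (0 called). In HIST2 on chromosome 1 it was 0.60 over 5 libraries (10 tested, 0 rose) and -0.01 over 6, and for the 3 HIST3 genes 0.15 and -0.37. The corresponding co-treatment medians were 0.07 in HIST1 and -0.23 in HIST2.

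Most of the head-to-head H2A-H2B pairs that were found kept a fixed order. Pairs were sought only among the 67 members placed on hg19, so any pair with HIST1H2BF or HIST1H2BG is missing. Of the 10 pairs found, 8 had at least 10 counts for both genes in every library. In 7 of these 8 the same gene was higher in all 12 libraries. H2B was the higher gene in 5 pairs, such as HIST1H2BC over HIST1H2AC by 0.02 to 0.64 on the log2 CPM scale, whose shared bases are printed above. H2A was the higher gene in 2 pairs, HIST1H2AG over HIST1H2BJ and HIST1H2AI over HIST1H2BL. Only HIST1H2BM and HIST1H2AJ changed order, with H2B higher in 5 of the 12 libraries. Coding lengths of the partners are nearly equal (381 bases for HIST1H2BC and 393 for HIST1H2AC). The H2A partner had the larger pre-treatment log2FC in 6 of the 8 pairs over 5 libraries and in 6 over 6 libraries, as in HIST1H2AH (1.36 and 0.24) beside HIST1H2BK (0.62 and 0.07). The pair HIST1H2BC and HIST1H2AC had log2FC of 1.09 and 1.12 over 5 libraries and 0.08 and 0.26 over 6.

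The difference between the experiments was tested directly. Over the 12 libraries no member was called at an FDR below 0.05, against 0.0287% of 24407 genes, and 1 member, HIST3H3, had an unadjusted p below 0.05, against 8.94% of genes. DESeq2 called 0 members with 1 at that p, and limma-voom called 0 with 0. Without pre-treatment control 3, 10 of 65 members were called with a higher log2FC in pre-treatment than in co-treatment, against 3.32% of 25668 genes. No member was called with a lower one, against 4.7% of genes, and 60 of the 65 estimates were above 0. The 10 called were the H4 genes HIST1H4A, HIST1H4B, HIST1H4E, HIST1H4F, HIST1H4H and HIST1H4L together with HIST1H1E, HIST1H2AE, HIST1H2BB and HIST1H3G. The differences ran from 0.97 ± 0.26 for HIST1H4H (FDR = 0.0355) to 2.105 ± 0.494 for HIST1H2BB (FDR = 0.023), by edgeR's quasi-likelihood test.

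Few genes of the lists around the histone pathway were called, as among all genes tested. The shares over all genes were 0.598% in co-treatment and 0.0242% over 6 pre-treatment libraries. Over 5 libraries 2.98% were called higher and 8.23% lower, and in the difference over 11 libraries 3.32% and 4.7%. Of 25 S phase and proliferation genes, all tested, 0 were called in co-treatment and in pre-treatment over 6 libraries, and 1 was called lower and 0 higher over 5 libraries. This was MKI67, which encodes the Ki-67 proliferation antigen and measured 424 and 498 CPM in pre-treatment controls 1 and 2, 106 CPM in control 3 and 63.9, 63.1 and 190 CPM in treated libraries (log2FC -2.097 ± 0.432 over 5 libraries, FDR = 0.0108, and -1.69 ± 0.62 over 6, FDR = 0.366). It was also called lower in the difference between experiments over 11 libraries (-2.07 ± 0.51, FDR = 0.0284). MKI67 was thus high in the 2 controls in which the histone members were low. Summed over the list, levels were 2163, 2405 and 2487 CPM in pre-treatment controls, 1579 and 1486 CPM in treated 1 and 2, and 2784 CPM in treated 3. Summed histone CPM per CPM of this list was 0.842 and 1.34 in pre-treatment controls 1 and 2 and between 2.23 and 3.55 in the other 10 libraries. Across the 12 libraries, which share groups and scaling, summed histone CPM had a rank correlation of 0.77 with this list, as a description. The value for the share of small structured RNA was 0.36. Both values pool experiments of different level and cannot rank the 2 measures. Histone sum and small RNA share were both highest in co-treated 2 within co-treatment (9726 CPM, 13.03%) and in control 3 within pre-treatment (8819 CPM, 17.56%). The S phase list was highest in co-treatment control 3 (3210 CPM) and pre-treated 3 (2784 CPM). No correlation was computed within an experiment. Fewer cells in S phase and less histone mRNA per cell cannot be told apart in bulk RNA.

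**Figure D5:**
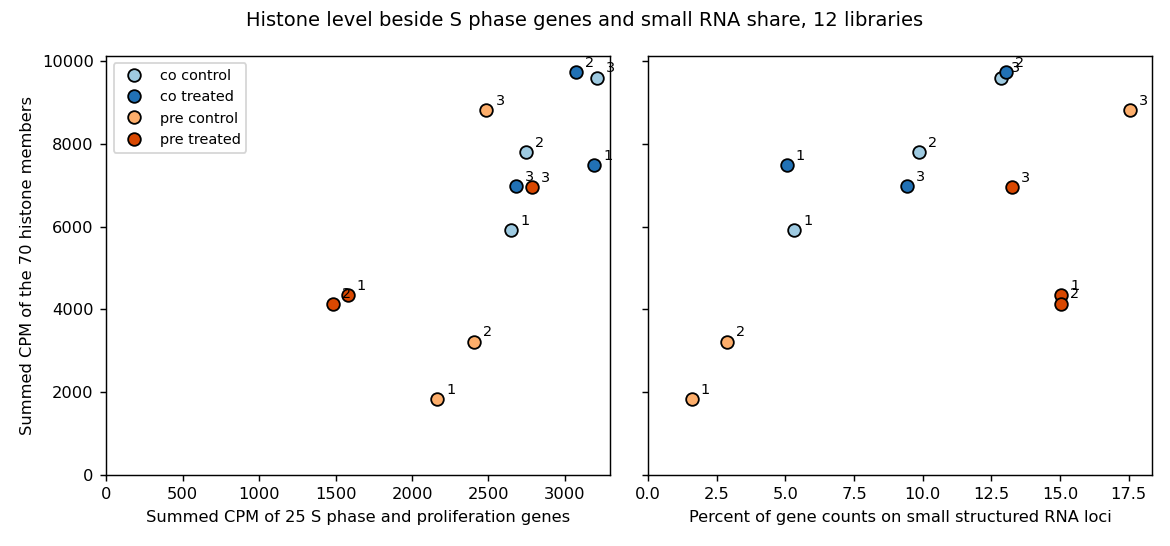
Summed CPM of the 70 members (vertical axis) against the summed CPM of 25 S phase and proliferation genes (left) and against the percent of gene counts on small structured RNA loci (right), with 1 point per library colored by group and numbered by replicate. Pre-treatment controls 1 and 2 have the lowest histone level (1821 and 3219 CPM) with S phase levels of 2163 and 2405 CPM, and the lowest small RNA shares (1.58% and 2.88%).

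The list of replication-independent histone variants, whose expression is not confined to S phase, had 0 of 12 genes called in co-treatment and in both pre-treatment fits. The 2 with the highest levels encode the replacement H3 histone. H3F3B had a log2FC of -0.13 ± 0.14 in co-treatment and 0.46 ± 0.13 over 5 pre-treatment libraries (FDR = 0.037, under the threshold on log2FC), and H3F3A had -0.19 ± 0.13 and 0.52 ± 0.12 (FDR = 0.0161, under that threshold). Over 6 libraries their log2FC were 0.08 ± 0.27 and 0.15 ± 0.26. H3F3A was called in the difference between experiments over 11 libraries (0.66 ± 0.18 higher in pre-treatment, FDR = 0.0426). Of 15 tested genes for histone mRNA synthesis and 3′ end processing, 0 were called in these fits. The most abundant of them, the exonuclease gene ERI1 and the cleavage factor gene CPSF3, had log2FC of -0.54 ± 0.35 and 0.62 ± 0.12 over 5 libraries (FDR = 0.282 and 0.00828), and -0.71 ± 0.36 and 0.30 ± 0.24 over 6. In the difference over 11 libraries 2 genes of this list were called lower in pre-treatment, POU2F1, an octamer-binding factor (-1.06 ± 0.19, FDR = 0.00925), and SYMPK, the scaffold of the cleavage complex (-0.64 ± 0.18, FDR = 0.0465). In pre-treatment alone they had -0.91 ± 0.11 (FDR = 0.00177) and -0.70 ± 0.13 (FDR = 0.00694) over 5 libraries, under the threshold on log2FC, and -0.63 ± 0.30 and -0.54 ± 0.21 over 6. SLBP, chosen after its values were seen, had 0.60 ± 0.13 over 5 libraries (FDR = 0.0119) and 0.27 ± 0.24 over 6 (FDR = 0.686), with 43.6 and 36.2 CPM in controls 1 and 2, 67.7 CPM in control 3 and 57.5 to 61.0 CPM in treated libraries. Of 14 tested histone chaperone genes, 0 were called. SUPT16H, of the FACT complex, had 0.37 ± 0.14 and NAP1L1, a nucleosome assembly protein gene, 0.40 ± 0.15 over 5 libraries (FDR = 0.0865 and 0.0822), and 0.24 ± 0.19 and 0.21 ± 0.21 over 6.

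Markers of mesenchymal and fibroblast cells also moved in pre-treatment. Of these 10 markers, 2 were called higher over 6 libraries (VIM and COL3A1), against 0.0242% of all genes in either direction. Over 5 libraries 4 were called higher (with DCN and YAP1), against 2.98% of all genes. In co-treatment 1 rose (VIM) and 1 fell (PDGFRA), against 0.598% of all genes in either direction. VIM, COL3A1 and DCN were called higher in the difference over 11 libraries, against 3.32% of all genes. The summed level of all 10 markers was 716, 701 and 567 CPM in pre-treatment controls and 631, 634 and 527 CPM in treated libraries. In co-treatment it was 530 to 616 CPM in controls and 395 to 441 CPM in treated libraries. The highest markers, PDGFRA and FN1, weigh most in these sums. Over 5 libraries their log2FC were -0.60 ± 0.14 (FDR = 0.0187, under the threshold on log2FC) and -0.53 ± 0.27 (FDR = 0.171), unlike the 4 called higher. Of the markers, COL1A2 (0.0873 CPM), YAP1 (0.389 CPM) and COL1A1 (0.598 CPM) were near 0 on average. The part of the mesenchymal and fibroblast markers in the histone values was not tested.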

How the data were processed

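Per the study's methods, the authors trimmed reads with cutadapt 2.10 (after FastQC 0.11.8), mapped them to hg19 with HISAT2 2.1.0 and counted them per gene symbol with HTSeq 0.7.2. The deposited counts are raw read counts for each of the 12 libraries, and 5 closing entries on no gene (40.0% to 59.9% of all entries) were left out. The authors' tables of fold changes and p-values were not used. Libraries were paired-end and rRNA-depleted, which does not exclude short or non-polyadenylated RNA.

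The quasi-likelihood test of edgeR 4.0.16 was run in R 4.3.3 with TMM factors. Genes were tested when their CPM reached that of 5 counts in the smallest library (0.181 in co-treatment, 0.12 in pre-treatment) in at least the number of libraries in the smaller group. The p-values were adjusted over all genes tested. Calls needed FDR < 0.05 and absolute log2FC > 0.6 or > 1. The difference between experiments was fitted as an interaction, with FDR < 0.05. Printed CPM use TMM factors of all 12 libraries, whereas each fit has its own factors, and the SE is the log2FC over the root of its F statistic. DESeq2 1.42.0 and limma 3.58.1 were alternatives, beside other scalings and filters, a replicate block and each library left out. Tests were checked on simulated counts.

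Between libraries of 1 group, chi-square values over the members were 21.3 to 145.7 for each degree of freedom, above counting error, so no pair agreed within counting error, a check that cannot tell repeat libraries of 1 culture from separate cultures. Intervals and floors cover counting error only. Members, lists and tests were chosen with earlier results of these data known. Values in every library are given for the 2 highest members of each class and up to 5 called members a direction (smallest FDR), and log2FC for class extremes. Of the lists of histone variants, histone mRNA processing, chaperones and S phase, called genes are named, and otherwise the 2 highest. Positions and stem-loops come from hg19 with a lifted GENCODE annotation (67 members matched), and promoters from RefSeq on GRCh38.p14 (65 matched).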

Additional observations from a re-analysis of the deposited data

How the results depend on the processing

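In co-treatment, over 6 pre-treatment libraries and for the difference between experiments, the count of called members stayed at 0 under every alternative run, apart from leaving out pre-treatment control 3, which gave 24 called members in pre-treatment and 10 for the difference. Leaving out each library gave 0 to 0 in co-treatment, 0 to 24 in pre-treatment over 6 libraries and 0 to 10 for the difference. Over 5 pre-treatment libraries, 24 members were called, 15 with library size only (the median log2FC of all genes then moved from 0.01 to -0.21, and that of the members from 0.99 to 0.78) and 10 to 33 with 1 more library left out (10 without control 1, 12 without treated 3). All other alternatives gave 17 to 30, and the sign of no named member changed among 255 values. For the named members, 29 of 284 values changed sign in co-treatment and 26 of 285 over 6 pre-treatment libraries, none of them called. Over all genes tested, deviations of same-numbered libraries from their group means had correlations of -0.0658, -0.0743 and -0.0646 in co-treatment. In pre-treatment they were -0.23, 0.029 and -0.2791. Of the 65 members tested in pre-treatment, however, 62 were highest in control 3 among controls, and 61 in treated 3 among treated libraries. Whether the numbers pair the cultures cannot be told from these values. The replicate block gave 0 called members in co-treatment, 0 over 6 pre-treatment libraries, 19 over 5, and 0 for the difference. Few counts limit the 13 members below 1 CPM. Some of these share their whole coding sequence with a twin gene, so that reads matching both copies may be counted on neither.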

Other observations

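Among the histone symbols set aside as pseudogenes, reads were counted on several. HIST2H2BA had 3518 counts over the 12 libraries, HIST3H2BA 2718 and HIST2H2BB 2482, whereas HIST1H2APS4, the highest of the 13 symbols named by PS and a number, had 425.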
